A study of Homo sapiens with 6 samples.

Results

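Expression of 10 genes for actin nucleators other than the WAVE proteins was compared between 3 WASF3 knockdown clones and 3 control clones of the human breast cancer line MDA-MB-231, an invasive triple-negative line. The genes were WASL and WHAMM of the WASP family, the formins DIAPH1, DIAPH2, DIAPH3, FMNL1, FMNL2, FMNL3 and DAAM1, and SPIRE1. Every probe set annotated to 1 of these symbols was taken, which gave 33 of the 54613 probe sets of the array that are not controls, and 10 of its 19775 named genes. They were chosen by function and not by their values, although with earlier results of these data known. The question was whether other nucleators differ when WASF3 is low.

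The knockdown clones carried a pSM2 retroviral vector with a short hairpin RNA against WASF3, and the control clones carried the empty vector or a hairpin against GFP. Cells of both groups were infected, selected in 1.0 µg/ml puromycin for 2 weeks, expanded from single drug-resistant colonies and labelled as passage 4, so that all 6 are puromycin-resistant single clones. Which of the 2 WASF3 hairpins, or which control vector, a clone carried is not given in the labels. Each array is 1 clone, and a difference between clones that preceded the hairpin cannot be told apart from the effect of the hairpin in that clone. Bulk RNA also does not tell fewer expressing cells from less RNA per cell.

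Actin filaments seldom start by themselves, because small clusters of monomers fall apart, and nucleators are the proteins that start them. The WAVE proteins, of which WASF3 is 1, act below RAC and switch on the ARP2/3 complex, which grows branches from the side of existing filaments in lamellipodia. WASL, also called N-WASP, works on the same complex below CDC42, in endocytosis and in invadopodia, the matrix-degrading protrusions of cancer cells. Formins work without ARP2/3: a dimer of the formin homology domain stays on the growing end and makes unbranched filaments of filopodia, stress fibres and the cytokinetic ring. SPIRE proteins line up monomers along repeated actin-binding domains and cooperate with formins on vesicles.

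Values are log2 RMA signals, given for clones 1, 2 and 3 of each group in this order and as mean ± SD over the 3 clones of a group. Every difference is the knockdown mean minus the control mean, with the standard error (SE) and 95% interval of a limma fit, and a probe set was called at a limma p under 0.05 after Benjamini-Hochberg adjustment over all 54613 probe sets. Signals of different probe sets are not compared, since each set of probes has its own brightness. WASF3 itself read 5.40, 5.80 and 4.52 in the knockdown clones, against 6.77, 6.42 and 6.59 in the control clones. Each knockdown clone was lower than each control clone, with a difference of −1.35 (SE 0.29) that missed the threshold (adjusted p = 0.102 in limma). The mesenchymal markers VIM, CD44, EGFR, AXL, CAV1 and MSN averaged from 10.8 to 14.1 in knockdown and from 10.3 to 14.3 in control clones, and 0 of these 6 were called. Of the 5 luminal markers 0 were called. PGR and FOXA1 averaged 3.32 and 3.05 in knockdown clones and 3.31 and 3.31 in control clones. ESR1, GATA3 and ERBB3 averaged 5.73, 7.12 and 7.50 in knockdown clones and 5.89, 7.37 and 6.96 in control clones. FOXA1 (−0.26, unadjusted p = 0.0486 in limma) and ERBB3 (0.54, unadjusted p = 0.0412 in limma) differed before adjustment. Markers of leukocytes, which should be absent, had median levels of 4.73 in knockdown and 5.02 in control clones, with a range from 3.27 to 6.28 and from 3.20 to 6.32. A low signal can therefore not be told from background: 15 of the 33 member probe sets averaged no more than the highest of these markers, including DIAPH2 205603_s_at and 205726_at, FMNL3 227844_at and WASL 230340_s_at. The same held for WASF3 in the knockdown clones, and 9 member probe sets had a mean of 5 or less. Knockdown clone 3 stood apart, with correlations from 0.984 to 0.987 with the other 5 arrays. The pairs among those 5 arrays correlated from 0.991 to 0.998. The control arrays were closest, at 0.998 with each other. Knockdown clones 1 and 2 correlated at 0.992 with each other and from 0.991 to 0.992 with the control arrays. The 3′ minus 5′ signal of the GAPDH and ACTB control probes, which reflects RNA quality, was 2.11, 1.62 and 1.66 in knockdown and 1.13, 1.47 and 1.26 in control clones. All 3 knockdown values exceeded all 3 control values, so the index and the group cannot be told apart on these arrays. Fits with the index as a covariate are given as values only, and its part in the results was not tested beyond them.

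Of the 33 probe sets, 1 was called, an FMNL2 probe set that rose, and 0 were called lower. That is 3.03% of the members, beside 0.558% of all probe sets called in either direction and 0.251% called higher and 0.308% called lower. With each gene read from the probe set of highest mean, 0 of 10 were called, beside 0.738% of all genes, and these 10 had a median difference of 0.24 beside −0.01 for all genes, with 7 positive and 3 negative, or 70.0% positive beside 47.6% of all genes. Before adjustment 3 of the 10 were higher and 1 was lower at a limma p under 0.05, beside 16.8% of all genes (9.11% higher and 7.67% lower). Over all member probe sets that p was met by 6 higher and 2 lower ones, or 24.2%, beside 14.0% of all probe sets (7.25% higher and 6.79% lower). Knockdown and control clones did not overlap in 7 member probe sets, or 21.2%, beside 21.0% of all probe sets, so this share was that of the array at large. Without knockdown clone 3 the members held 4 called higher, of FMNL2, DIAPH2 (2) and DIAPH3, and without knockdown clone 1 they held 2, of FMNL2 and DIAPH3. In these fits the whole array of 54613 probe sets held 1485 and 812 called higher, beside 137 with all clones. Without knockdown clone 2 or any single control clone the members held 0. The whole array then held 7 called higher without knockdown clone 2, and 0 without control clone 1, 2 or 3. Of the 9 genes with more than 1 probe set, 5 had probe sets of both signs.

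**Figure D1:**
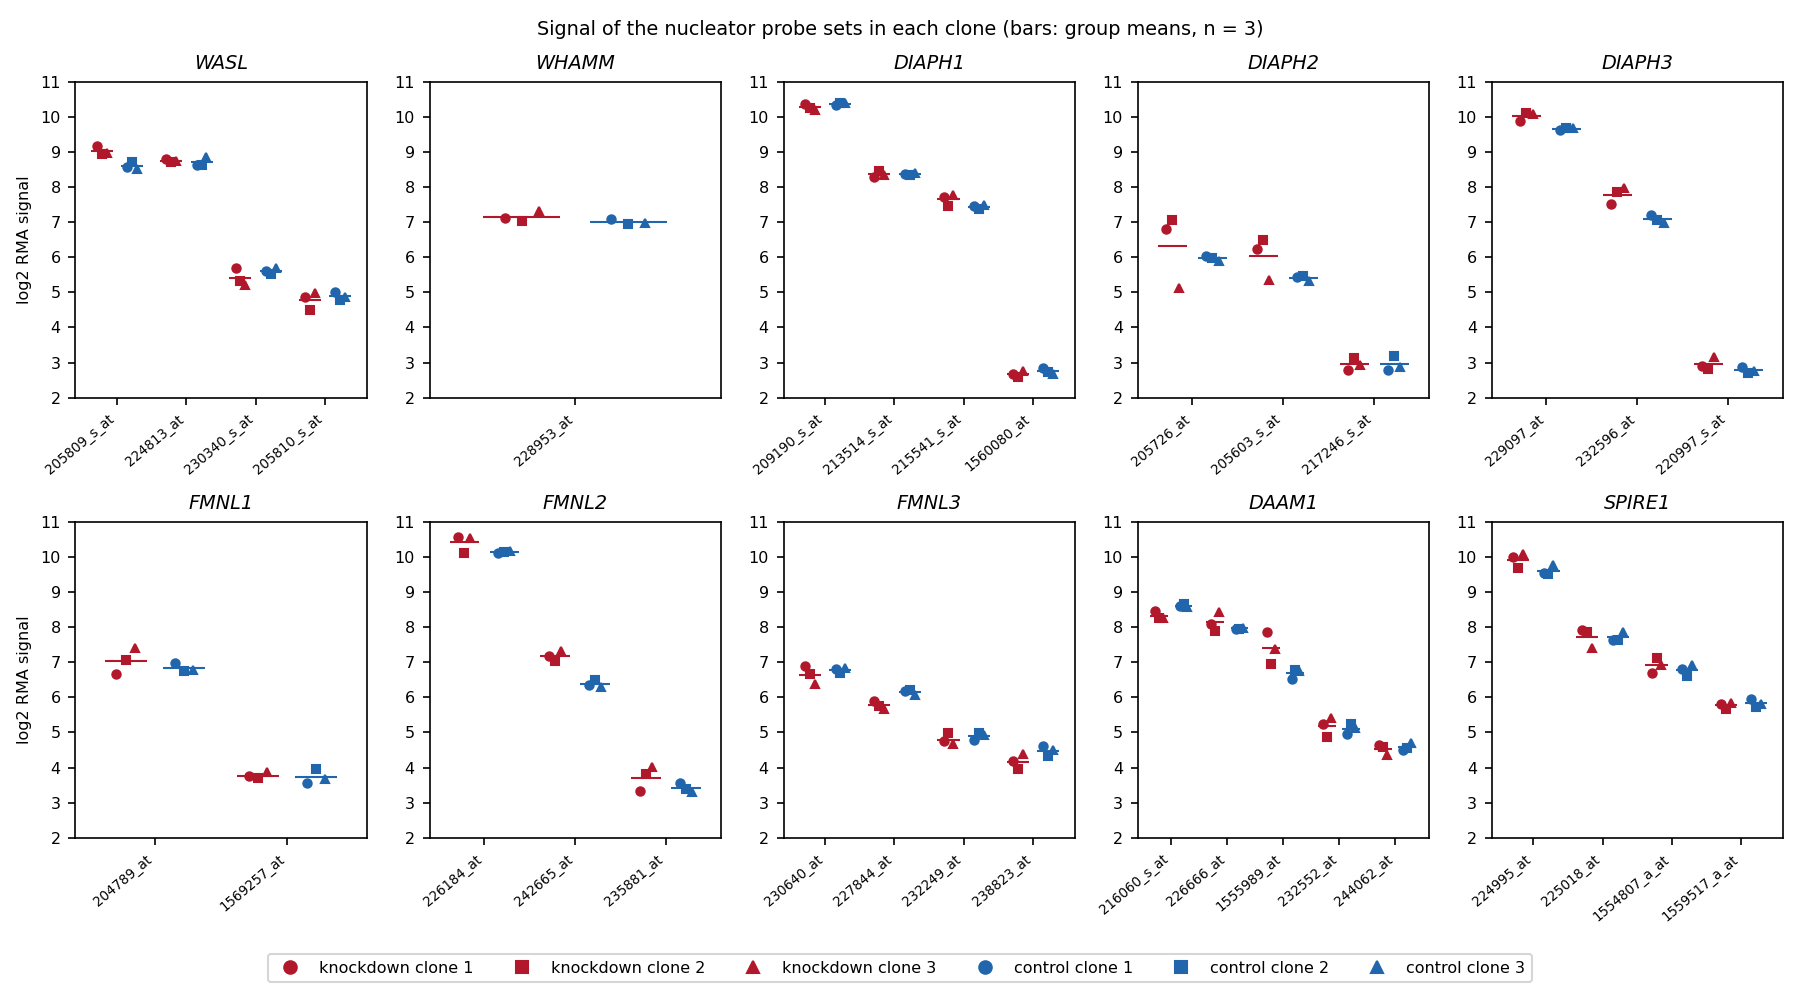
Log2 RMA signal (y axis) of each of the 33 probe sets (x axis, 1 panel per gene), with knockdown clones in red on the left and control clones in blue on the right of each probe set, and bars for the group means (n = 3). FMNL2 242665_at has all knockdown clones between 7.04 and 7.31 and all control clones between 6.28 and 6.50, while DIAPH2 205726_at has knockdown clone 3 below and clones 1 and 2 above every control clone; heights of different probe sets are not comparable.

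The promoter windows of 3 members are shown, FMNL2 as the gene with the called probe set, and DIAPH3 and WASL as the genes whose probe set of highest mean had all knockdown clones above all control clones. Each runs 5′ to 3′ on the strand of the gene, with 250 bases before and 50 after the annotated start, as given by RefSeq on GRCh38.p14. The positions are chr2:152334924-152335223 on the plus strand for FMNL2, chr13:60163879-60164178 on the minus strand for DIAPH3, and chr7:123748954-123749253 on the minus strand for WASL. Capitals mark the CCAAT box (CCAAT, or ATTGG on the other strand) and the GC box (GGGCGG, or CCGCCC on the other strand).
FMNL2: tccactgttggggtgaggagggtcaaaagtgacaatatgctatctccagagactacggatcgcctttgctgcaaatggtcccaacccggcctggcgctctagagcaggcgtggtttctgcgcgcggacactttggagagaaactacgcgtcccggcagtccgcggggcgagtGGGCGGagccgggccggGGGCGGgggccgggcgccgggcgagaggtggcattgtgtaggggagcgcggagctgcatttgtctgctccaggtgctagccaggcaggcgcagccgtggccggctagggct
DIAPH3: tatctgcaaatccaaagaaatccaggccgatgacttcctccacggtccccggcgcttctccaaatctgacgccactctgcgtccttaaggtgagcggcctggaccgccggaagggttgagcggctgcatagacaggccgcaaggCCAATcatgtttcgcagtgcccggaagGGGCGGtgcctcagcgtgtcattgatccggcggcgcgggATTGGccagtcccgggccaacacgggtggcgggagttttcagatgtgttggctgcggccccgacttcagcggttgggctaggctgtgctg
WASL: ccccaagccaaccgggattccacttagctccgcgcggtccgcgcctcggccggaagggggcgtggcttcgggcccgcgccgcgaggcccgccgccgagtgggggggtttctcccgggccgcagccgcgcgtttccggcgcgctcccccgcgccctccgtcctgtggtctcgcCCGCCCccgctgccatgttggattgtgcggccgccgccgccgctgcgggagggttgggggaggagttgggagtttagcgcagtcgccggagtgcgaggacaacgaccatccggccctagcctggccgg
The DIAPH3 window held 2 CCAAT boxes and 1 GC box, the FMNL2 window 0 and 2, and the WASL window 0 and 1. Windows were matched for 9 of the 10 members, all but WHAMM, taking the most upstream window of each gene. A GC box stood in 8 of these 9, all but SPIRE1, and in 44.5% of the windows of 27305 genes. The 9 windows were richer in G and C, with a median of 66.3% beside 58.3% of all windows, and windows of equal GC content were not compared. A CCAAT box stood in 3, of DAAM1, DIAPH1 and DIAPH3, and in 35.7% of all windows. The CArG box, the binding motif of the serum response factor SRF, was searched on both strands and matched in 0 of the 9 and in 1.3% of all windows.

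FMNL2 is a formin on chromosome 2 that elongates filaments at the leading edge and acts below CDC42. Its probe set 242665_at read 7.18, 7.04 and 7.31 in the knockdown clones, against 6.35, 6.50 and 6.28 in the control clones. All knockdown clones lay above all control clones and the spread was small in both groups. The level rose 1.74-fold to 7.18 ± 0.14 in knockdown clones, against 6.38 ± 0.11 in control clones (log2 difference 0.80, SE 0.11, 95% interval 0.55 to 1.05, adjusted p = 0.0377 in limma). Its exact two-sided permutation p was 0.1, the smallest that 3 against 3 allows. The difference was 0.73 to 0.87 when any 1 clone was left out. Among these fits the call held only without knockdown clone 1 (adjusted p = 0.0325) or 3 (0.0152). It was not called without knockdown clone 2 (adjusted p = 0.0716) or without control clone 1 (0.274), 2 (0.230) or 3 (0.241). In each fit without 1 control clone, 0 probe sets of the whole array were called higher. Nor was 242665_at called with the RNA quality index in the model (0.72, adjusted p = 0.245), an intensity trend (0.0547) or the replicate block (0.169). The call held with array weights (adjusted p = 0.0174), a mean log2 above 5 (0.0388), no _s_at or _x_at probe sets (0.0400) and equal array medians (0.0343).

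The other FMNL2 probe sets pointed the same way with smaller differences. The one with the highest mean, 226184_at, read 10.57, 10.12 and 10.54 in knockdown clones, against 10.10, 10.15 and 10.17 in control clones. Knockdown clones 1 and 3 were above every control clone, while clone 2 lay within the control range (0.27, SE 0.13, interval −0.04 to 0.58, adjusted p = 0.422 in limma). The interval of 226184_at reaches up to 0.58 and that of 242665_at down to 0.55, so that they meet. With the RNA quality index in the model the difference of 226184_at was 0.044 (adjusted p = 0.956). The third, 235881_at, lay below a mean of 5 and gave 0.30 (SE 0.18, adjusted p = 0.519). Where on the FMNL2 transcripts each probe set lies is not stated in the annotation used.

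The genes with the profile most like FMNL2 242665_at were sought among 13042 genes with a mean above 5, by the root mean square difference of values centred on their own mean over the 6 arrays. The nearest were DNAJC6, an auxilin that uncoats clathrin vesicles (0.0854), the nucleoporin NUP88 (0.0905) and BFSP1, an intermediate filament protein of the lens (0.102). DNAJC6 read 8.26, 8.21 and 8.22 in knockdown clones, against 7.40, 7.44 and 7.31 in control clones. NUP88 read 10.71, 10.55 and 10.74 in knockdown clones, against 9.78, 9.86 and 9.93 in control clones. All 3 genes were called higher (differences of 0.84, 0.81 and 0.82), which their choice by likeness to a called probe set made likely. With 6 arrays such likeness is a description of these clones.

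FMNL1 and FMNL3 belong to the same formin subfamily as FMNL2. FMNL1, a formin best known from blood cells and located on chromosome 17, read 6.65, 7.06 and 7.39 on 204789_at in knockdown clones, against 6.97, 6.76 and 6.78 in control clones. The knockdown clones straddled the controls, with clone 1 below all of them and clones 2 and 3 above (0.20, SE 0.18, interval −0.22 to 0.62, adjusted p = 0.692 in limma). Its other probe set, 1569257_at, averaged 3.77 in knockdown and 3.73 in control clones, below the mean of 5.

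FMNL3, a formin of filopodia and of endothelial cells, was the member whose probe sets were all negative, 4 of 4. Its 227844_at read 5.89, 5.75 and 5.67 in knockdown clones, against 6.18, 6.22 and 6.08 in control clones. Every knockdown clone was below every control clone, but the difference of −0.39 (SE 0.10, interval −0.62 to −0.17) was not called (adjusted p = 0.133 in limma). The FMNL3 probe set with the highest mean, 230640_at, gave −0.13 (SE 0.14, adjusted p = 0.749), with knockdown clones at 6.91, 6.66 and 6.38 on both sides of the controls at 6.81, 6.68 and 6.84. The remaining 2, 232249_at and 238823_at, both below a mean of 5, gave −0.12 and −0.31 (adjusted p = 0.710 and 0.366).

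The diaphanous formins DIAPH1, DIAPH2 and DIAPH3 are held closed by contact between their own ends until they are activated, and DIAPH1 builds filaments of stress fibres. The 3 DIAPH1 probe sets with a mean above 5, 209190_s_at, 213514_s_at and 215541_s_at, gave −0.10, −0.01 and 0.20, none of them called (adjusted p from 0.455 to 0.985 in limma). On the one with the highest mean, 209190_s_at, the knockdown clones read 10.36, 10.26 and 10.18, against 10.34, 10.38 and 10.38 in the control clones. The groups overlapped, and the interval of −0.30 to 0.11 holds the difference of this probe set to a narrow range. The second, 213514_s_at, had an interval of −0.21 to 0.19. The fourth probe set, 1560080_at, averaged 2.67 in knockdown and 2.75 in control clones, below the mean of 5.

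DIAPH3, on chromosome 13, encodes a formin that also takes part in cytokinesis. It read 9.89, 10.10 and 10.07 on 229097_at in knockdown clones, against 9.62, 9.67 and 9.67 in control clones. On 232596_at it read 7.51, 7.86 and 7.96 in knockdown clones, against 7.19, 7.07 and 6.96 in control clones. On both probe sets every knockdown clone was above every control clone, with clone 1 the lowest of the 3. The differences were 0.37 (SE 0.09, interval 0.15 to 0.58, adjusted p = 0.139) and 0.70 (SE 0.14, interval 0.38 to 1.02, adjusted p = 0.0795), and neither was called in limma. That of 232596_at was called at 0.83 once knockdown clone 1 was omitted (adjusted p = 0.0235), at 0.60 once knockdown clone 3 was omitted (adjusted p = 0.0464), and at 0.69 with array weights (adjusted p = 0.0312). It was 1.05 with the RNA quality index in the model, and not called there (adjusted p = 0.184). The third DIAPH3 probe set, 220997_s_at, averaged 2.95 in knockdown and 2.78 in control clones, below the mean of 5.

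DIAPH2, a diaphanous formin on the X chromosome that is linked to endosome movement and ovarian function, separated the knockdown clones from each other. On 205726_at the knockdown clones read 6.80, 7.05 and 5.12, against 6.05, 5.98 and 5.88 in the control clones. On 205603_s_at they read 6.22, 6.49 and 5.36, against 5.43, 5.47 and 5.33 in the control clones. Clones 1 and 2 were above every control clone on both, by 0.82 and 1.08 over the control mean on each. Clone 3, which had the lowest WASF3 signal, was 0.85 below the control mean on 205726_at and within the control range on 205603_s_at. Over the 3 clones the SD was 1.05 and 0.59, against 0.08 and 0.07 in the control clones, and neither difference was called (0.35, SE 0.45, interval −0.70 to 1.40, adjusted p = 0.791, and 0.62, SE 0.26, adjusted p = 0.356, in limma). Without knockdown clone 3 both were called, at 0.95 and 0.95 (adjusted p = 0.0103 each), and without clone 2 the first was −0.01. The third probe set, 217246_s_at, averaged 2.95 in both groups.

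**Figure D2:**
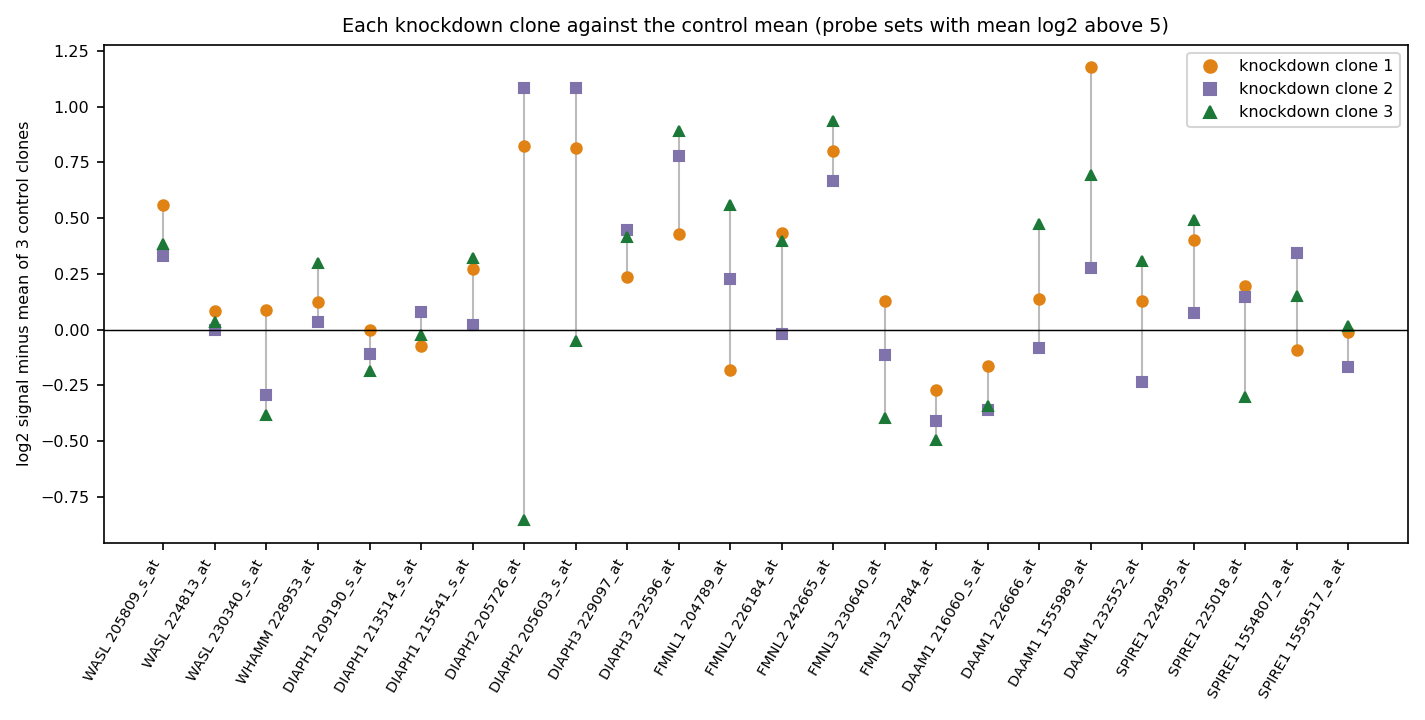
Log2 signal of each knockdown clone minus the mean of the 3 control clones (y axis) for the 24 member probe sets with a mean above 5 (x axis), with 1 marker per clone and a grey line over their range. DIAPH2 205726_at spans the widest range, with clones 1 and 2 at 0.82 and 1.08 and clone 3 at −0.85, while FMNL2 242665_at has the 3 clones together between 0.66 and 0.94.

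DAAM1, on chromosome 14, is a formin of the noncanonical Wnt pathway that is released by Dishevelled. Its 5 probe sets disagreed. The one with the highest mean, 216060_s_at, read 8.45, 8.25 and 8.27 in knockdown clones, against 8.61, 8.66 and 8.56 in control clones, with every knockdown clone lower (−0.29, SE 0.09, interval −0.51 to −0.07, adjusted p = 0.227 in limma). On 1555989_at the knockdown clones read 7.86, 6.96 and 7.37, against 6.52, 6.79 and 6.74 in the control clones, with every knockdown clone higher (0.71, SE 0.21, interval 0.22 to 1.21, adjusted p = 0.200). These probe sets had opposite signs and intervals that do not meet, but neither was called. The difference between them was not tested. The other 3, 244062_at, 232552_at and 226666_at, lay between −0.06 and 0.18 (adjusted p from 0.649 to 0.892). With the RNA quality index in the model the difference of 1555989_at was 0.05, while that of 216060_s_at was −0.46.

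WASL, on chromosome 7, had 1 probe set with separated groups. On 205809_s_at the knockdown clones read 9.15, 8.93 and 8.98, against 8.58, 8.70 and 8.51 in the control clones. Every knockdown clone was above every control clone (0.42, SE 0.10, interval 0.19 to 0.66, adjusted p = 0.122 in limma), and it was called in none of its 12 alternative fits (adjusted p from 0.0697 to 0.611). With the RNA quality index in the model it was 0.21. On 224813_at the knockdown clones read 8.79, 8.70 and 8.74, against 8.62, 8.64 and 8.86 in the control clones, a difference of 0.04 (SE 0.10, interval −0.19 to 0.27). The remaining probe sets, 230340_s_at and 205810_s_at, gave −0.20 and −0.10 (adjusted p = 0.587 and 0.803). WHAMM, a WASP-family activator of ARP2/3 on membranes between the endoplasmic reticulum and the Golgi, has 1 probe set, 228953_at. It read 7.13, 7.04 and 7.30 in knockdown clones, against 7.09, 6.94 and 6.98 in control clones, with overlapping groups (0.15, SE 0.10, interval −0.08 to 0.39, adjusted p = 0.567 in limma).

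SPIRE1, on chromosome 18, nucleates actin on vesicles together with formins of another subfamily. Its probe set with the highest mean, 224995_at, read 10.00, 9.68 and 10.09 in knockdown clones, against 9.53, 9.52 and 9.76 in control clones. Clones 1 and 3 were above every control clone and clone 2 was not (0.32, SE 0.13, interval 0.01 to 0.63, adjusted p = 0.341 in limma). Its other 3 probe sets, 225018_at, 1554807_a_at and 1559517_a_at, gave 0.01, 0.13 and −0.05, with adjusted p from 0.732 to 0.982 and the widest interval at −0.34 to 0.37.

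**Figure D3:**
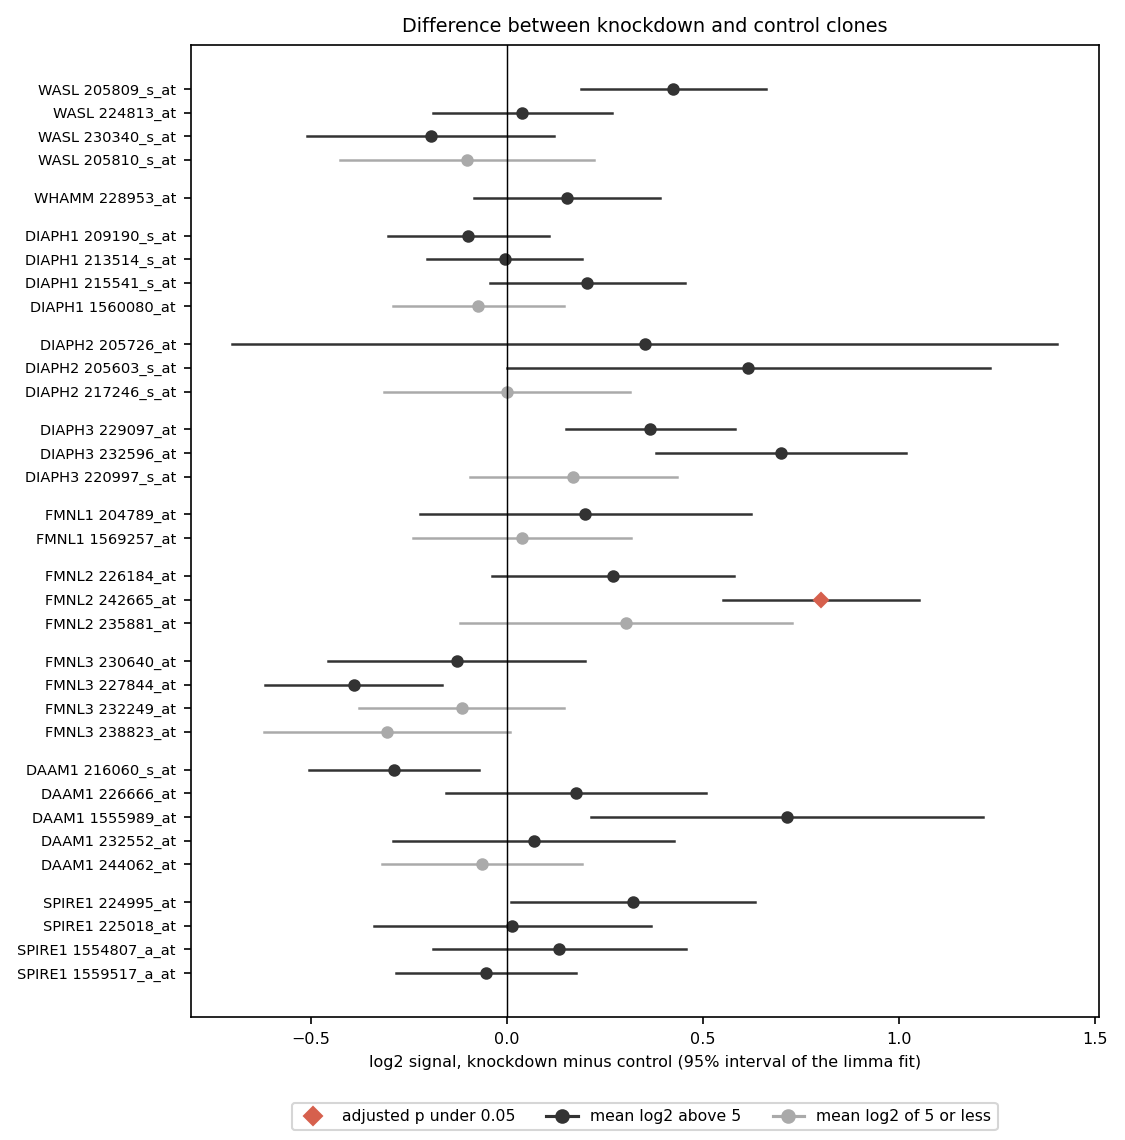
Log2 difference, knockdown minus control, with its 95% interval (x axis) for the 33 member probe sets grouped by gene (y axis); the diamond is the called probe set and grey marks those with a mean of 5 or less. FMNL2 242665_at stands at 0.80, the 4 FMNL3 probe sets are left of 0, and the interval of DIAPH2 205726_at, −0.70 to 1.40, is the widest.

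In 28 of the 33 probe sets the 95% interval lay within 1 log2 unit of no difference on both sides, and in 5 it reached beyond. For those 28 a 2-fold difference in signal was outside the interval. They include all 9 probe sets with a mean of 5 or less, and also FMNL3 227844_at and WASL 230340_s_at. All of these are among the 15 member probe sets that averaged no more than the highest leukocyte marker. Signal of those 15 cannot be told from background, so for them a narrow interval does not exclude a 2-fold difference in RNA. Differences of the size seen for WASL, FMNL3 or DIAPH3 229097_at were not called with 3 clones per group. The knockdown clones were the more variable group, on the array at large as among the members. The SD was larger in knockdown than in control clones for 28 of the 33 member probe sets and for 39381 of all 54613 probe sets. Median SDs of the member probe sets were 0.178 in knockdown and 0.102 in control clones, beside 0.157 and 0.0863 over the whole array.

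Other genes of the pathway were taken from 4 lists with 80 measured genes of 85, each read from its probe set with the highest mean. None was called in limma over all probe sets, and at an unadjusted p under 0.05 the 80 held 7 higher and 8 lower genes, or 18.8%, near the 16.8% of all genes. Calls among these pathway genes appeared without knockdown clone 1 (3 higher and 4 lower) and without knockdown clone 3 (4 higher and 2 lower). Of all 54613 probe sets, 812 were called higher and 653 lower without knockdown clone 1. Without knockdown clone 3 these were 1485 and 1008. Among 14 other nucleators the median difference was 0.02, and 1 gene was higher and 0 were lower before adjustment (p under 0.05). DAAM2, the paralogue of DAAM1, read 5.60, 6.67 and 6.02 in knockdown clones, against 5.19, 5.35 and 5.37 in control clones (0.79, SE 0.24, adjusted p = 0.211). Its means of 6.10 in knockdown and 5.30 in control clones lay below the highest leukocyte marker (6.32), so they cannot be told from background. WAS, the blood-cell WASP, gave −0.18 (SE 0.08, adjusted p = 0.382). COBL, the cordon-bleu nucleator, is named here after its values were seen, since the knockdown clones read 7.30, 4.24 and 4.39, against 6.08, 6.15 and 6.04 in the control clones. Clone 1 was above and clones 2 and 3 were below every control clone (−0.78, SE 0.73, adjusted p = 0.702). Except in knockdown clone 1, these COBL signals also lay below the highest leukocyte marker.

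Dishevelled proteins, which release DAAM1, were in the list of formin and SPIRE inputs. The Dishevelled gene DVL2 read 8.64, 8.64 and 9.00 in knockdown clones, against 8.06, 8.00 and 8.03 in control clones, with separated groups and a difference of 0.73 (SE 0.12) just short of the threshold (adjusted p = 0.0529 in limma). Its paralogue DVL3 read 8.48, 8.74 and 8.85 in knockdown clones, against 9.00, 9.17 and 9.18 in control clones (−0.43, SE 0.12, adjusted p = 0.170). Both are partners of DAAM1, and they had opposite signs. DVL1, named here as another Dishevelled gene of the list, gave 0.04 (SE 0.11, adjusted p = 0.919 in limma).

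Among 20 partners of WASL the median difference was −0.0037, and 2 were higher and 1 lower before adjustment. The adaptor NCK1, which recruits WASL to phosphorylated receptors, read 8.45, 8.47 and 8.06 in knockdown clones, against 9.03, 8.94 and 9.08 in control clones (−0.69, SE 0.13, adjusted p = 0.0715 in limma). FNBP1L, or TOCA-1, which helps CDC42 to open WASL, read 8.92, 9.09 and 9.19 in knockdown clones, against 8.67, 8.66 and 8.54 in control clones (0.45, SE 0.10, adjusted p = 0.111). For both genes the groups did not overlap, in opposite directions.

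Formins use up actin monomers, which frees the MRTF cofactors to switch on targets of SRF, and 24 genes of this output were measured. Their median difference was 0.05, and 1 was higher and 2 were lower before adjustment. ANKRD1, a muscle ankyrin-repeat protein that is also a target of YAP, read 10.41, 10.19 and 10.80 in knockdown clones, against 9.63, 9.55 and 9.62 in control clones (0.87, SE 0.15, adjusted p = 0.0644 in limma). The calponin-related TAGLN2 read 11.59, 11.71 and 10.95 in knockdown clones, against 12.30, 12.13 and 12.18 in control clones (−0.79, SE 0.19, adjusted p = 0.127). The groups did not overlap for either gene, and the 2 had opposite signs.

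**Figure D4:**
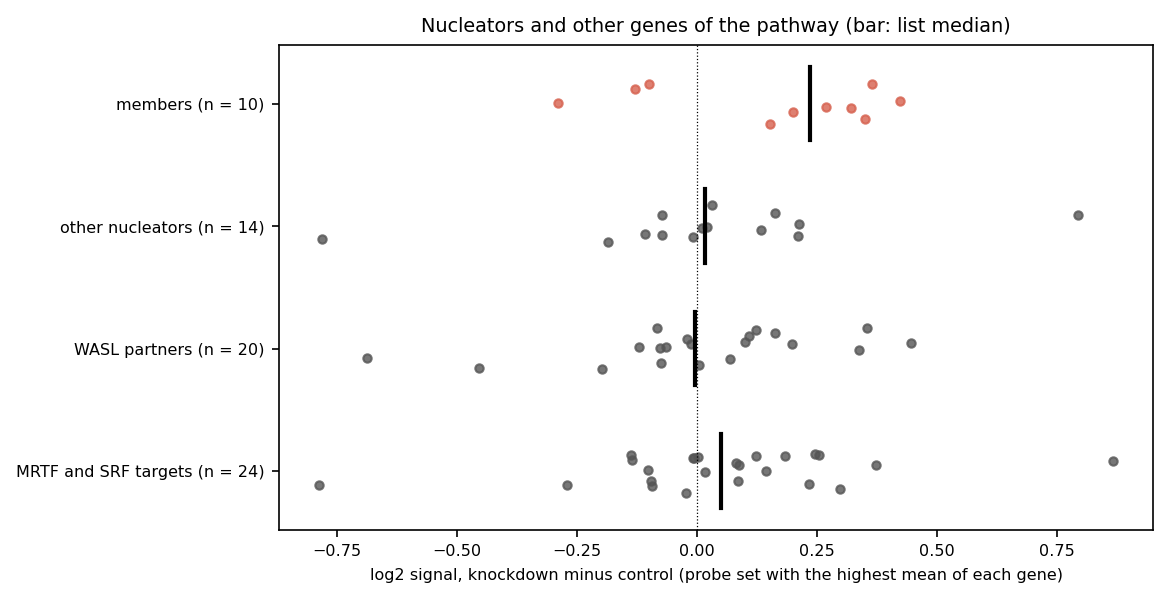
Log2 difference, knockdown minus control (x axis), of the 10 members and of the genes in 3 of the 4 pathway lists (y axis, 1 point per gene from its probe set with the highest mean; vertical spread within a row is for display), with a bar at each median. The members have a median of 0.24 and the 3 lists shown have medians between −0.0037 and 0.05, and no gene shown was called.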

How the data were processed

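Total RNA of 6 clones, 3 knockdown and 3 control, was labelled with biotin from the polyadenylated end of transcripts and hybridised to Affymetrix arrays, as the labels' protocols state. Per the submitters' processing notes, the authors used Affymetrix Expression Console 1.0 and RMA, and the deposited values are on a log2 scale. RMA corrects background, sets all arrays to 1 distribution and summarises probes, and thus hides a shift common to most genes. Scanner files were not used here, and the number of arrays limits the precision. Of the 54613 probe sets that are not controls, 41091 had 1 gene symbol in the platform annotation, 1801 several and 11721 none. Symbols were updated by gene identifier, for 41037, through a RefSeq table of GRCh38.p14, and probe sets with several symbols were left unnamed.

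Values were fitted with limma 3.58.1 (lmFit, eBayes without trend, 3.49 prior degrees of freedom) under R 4.3.3. Group was the only term, on all 54613 probe sets and 6 arrays. Tests were two-sided with Benjamini-Hochberg adjustment, called under 0.05. The fit was tested on simulated data in which both groups shared the same SD. The larger spread of the knockdown clones was not simulated. The text names every member probe set, WASF3, up to 4 called genes per pathway list or otherwise the 2 with the smallest unadjusted p, and the 3 genes most like the called probe set. The counts of 1 pathway list are not reported here. The members and lists were chosen with earlier results of these data known. The alternatives left out each clone, used the replicate number as a block, an intensity trend, array weights, a mean log2 above 5, no _s_at or _x_at probe sets, the RNA quality index (3′ minus 5′ signal) in the model, equal array medians, or the mean of all probe sets of a gene. The table held 0 columns of other samples.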

Additional observations from a re-analysis of the deposited data

How the results depend on the processing

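With 1 clone left out, the called member probe sets ranged from 0 to 4 higher and stayed at 0 lower, and the member genes from 0 to 1 higher. In these 6 fits the pathway genes ranged from 0 to 4 in each direction, all probe sets from 0 to 1485 higher and from 3 to 1008 lower, and the WASF3 difference from −1.63 to −0.99. WASF3 was called without knockdown clone 3 and with array weights (−1.16, adjusted p = 0.0359 in limma). Array weights called 2 member probe sets higher, 2 pathway genes in each direction, and 797 higher and 614 lower probe sets in all. With an intensity trend 0 member probe sets were called, and 36 higher and 79 lower in all. With the RNA quality index in the model 0 members were called, and 0 higher and 1 lower in all. The _s_at and _x_at probe sets left out, 62 were higher and 85 lower. The filter on low values and equal array medians each called 1 pathway gene higher, and the mean of all probe sets called 1 lower. The causes were not tested, beyond the fewer arrays or probe sets by construction. Deviations of same-numbered clones had correlations of −0.07, −0.10 and −0.04, beside −0.0057 to 0.072 for differently numbered clones. These values gave no sign that the numbers pair the samples, but so few clones cannot exclude it. The fit with the replicate block called 0 member probe sets, and 0 higher and 6 lower in all.

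Of 410 values of the member probe sets, 32 changed sign, on 11 probe sets whose difference was at most 0.35. With 1 clone left out they ranged from −0.052 to 0.22 for DAAM1 232552_at, −0.12 to 0.019 for DAAM1 244062_at, −0.049 to 0.028 for DIAPH1 213514_s_at, −0.014 to 0.95 for DIAPH2 205726_at and −0.092 to 0.11 for DIAPH2 217246_s_at. They ranged from −0.045 to 0.15 for FMNL1 1569257_at, −0.26 to 0.0068 for FMNL3 230640_at, −0.078 to 0.17 for SPIRE1 225018_at, −0.10 to 0.0032 for SPIRE1 1559517_a_at, −0.0024 to 0.11 for WASL 224813_at and −0.20 to 0.035 for WASL 205810_s_at. With the index in the model, DAAM1 232552_at gave −0.15, DIAPH1 213514_s_at 0.081, DIAPH2 205726_at −0.10, DIAPH2 217246_s_at 0.024, FMNL1 1569257_at −0.12, SPIRE1 225018_at −0.16 and WASL 224813_at −0.0090. With array weights DAAM1 232552_at gave −0.022, DIAPH1 213514_s_at 0.018 and DIAPH2 217246_s_at 0.057. With equal array medians DIAPH1 213514_s_at gave 0.015 and DIAPH2 217246_s_at 0.020. The sign of the other 22 probe sets held in all alternatives run for them. They include the FMNL2, DIAPH3 and WHAMM probe sets and DIAPH2 205603_s_at, all positive. The negative ones were DAAM1 216060_s_at, DIAPH1 209190_s_at and 1560080_at, FMNL3 227844_at, 232249_at and 238823_at, and WASL 230340_s_at.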
